A study of Mus musculus with 20 samples.

Results

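Clustered H3K27ac domains of fetal hematopoietic stem cells (HSCs) are described here, namely stretches of the genome in which acetylated peaks lie close together and add up to a long acetylated length. Fetal H3K27ac peaks on chromosomes 1 to 19 were joined when at most 12.5 kb separated them. A joined stretch was kept when the lengths of its peaks, called constituents below, summed to 12000 bp or more. This gave 436 domains out of 14779 joined stretches, with 2529 constituents out of 23368 fetal peaks. The rule used fetal H3K27ac positions and widths, so the size, span and peak number of the domains are descriptions and were not tested.

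H3K27ac is an acetyl mark on histone H3 lysine 27 that is deposited mainly by the coactivators p300 and CBP at active promoters and enhancers. Long clusters of acetylated elements are often called super-enhancers, a term introduced for clusters ranked by factor or acetylation signal, and in blood cells such clusters are known to lie near genes of cell identity. H3K4me3 marks active or poised promoters, H3K4me1 marks enhancers and promoter flanks, and H3K27me3 is the mark left by Polycomb repressive complex PRC2. A cluster can therefore be built from enhancers, from neighbouring promoters, or from both, and H3K4me3 helps to separate these cases.

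Chromatin immunoprecipitation with sequencing (ChIP-seq) was done on HSCs from B6129SF1 mice at 2 stages. Fetal cells came from the liver at embryonic day 14.5 and adult cells from the bone marrow at 6 to 8 weeks. The sort at both stages took Lin- Sca1+ cKit+ CD135- cells, a gate that in general also holds multipotent progenitors, and no genotype or treatment other than the strain is given. The labels give 20 samples in 10 groups of 2 replicates, that is 4 histone marks (H3K27ac, H3K27me3, H3K4me1 and H3K4me3) and an input for both stages, with 50000 cells per ChIP. The 8 peak lists are titled combined, 1 per mark and stage, so the values have no replicate error, stages were compared without a test, and a stage cannot be told apart from its libraries and its peak call. Read depth is unknown. Coordinates are mm9 and 1-based. Gene positions in that build were not used here, so domains are named by position and the sorted cell type was not checked against marker genes. Values in parentheses after a share or a median are 95% exact intervals over peaks or domains. They cover counting error only, and neighbouring peaks are not independent.

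A typical domain held 6 constituents over about 35 kb. The median span was 34852 bp, with a range from 12757 to 111716 bp, and the median summed length was 15840 bp, with a maximum of 61319 bp. Peaks filled 47.7% of the span of the median domain. The median gap between neighbouring constituents was 3232 bp, with quartiles of 1083 and 6612 bp, well inside the joining distance. Between 4 and 7 constituents were present in 296 domains, and 33 domains had 10 or more. At the other end, 4 domains were 1 unbroken peak each, the longest of them chr15:101071122-101098900 with 27779 bp.

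The domains held 15.6% of all fetal H3K27ac length, or 7.75 of 49.6 Mb, in 10.8% of the peaks. Their constituents had a median width of 2374 bp against 1821 bp for other fetal peaks, as the rule favours wide peaks. The widest constituent made up 35.5% of the summed length of the median domain, and at least 50% in 84 domains. The share of fetal H3K27ac peaks that were constituents ranged from 7.00% on chromosome 12 to 14.1% on chromosome 15. Of 417 pairs of neighbouring domains on a chromosome, 50 were at most 100000 bp apart.

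**Figure D1:**
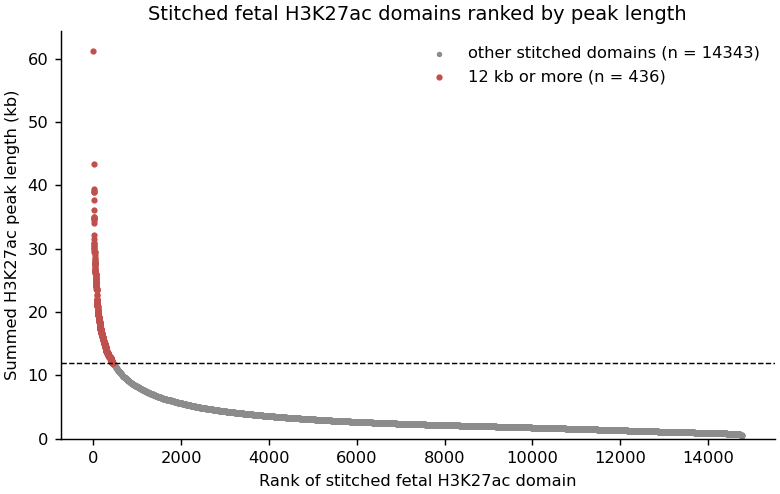
Summed H3K27ac peak length in kb (y axis) of the 14779 joined fetal stretches against their rank (x axis), with the 436 domains of 12 kb or more in red and a dashed line at the threshold. Lengths run without a step through the threshold, up to 61319 bp in the longest domain.

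The threshold cut through a continuous range. The 3 domains just inside were chr7:134219844-134248855 with 12000 bp, chr1:89742198-89763625 with 12008 bp and chr9:90130146-90166201 with 12023 bp. The 3 stretches just outside were chr8:114045055-114086893 with 11980 bp, chr6:90686000-90711085 with 11951 bp and chr1:36317154-36333033 with 11948 bp. Adult H3K27ac covered 50.5%, 21.9% and 70.9% of the constituent length of the first 3 and 64.6%, 53.8% and 76.2% of the other 3, so the values on both sides of the threshold overlapped.

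The longest domain was chr17:84488166-84589684, with 13 constituents and 61319 bp of H3K27ac in a span of 101519 bp. Its widest constituent was 11579 bp wide, 4 constituents overlapped fetal H3K4me3, and adult H3K27ac covered 82.3% of its constituent length. The 3 constituents without an adult H3K27ac peak were the ones of 2076, 1201 and 2530 bp near its start, while all constituents over 2530 bp had one. Another of the longest, chr17:84352406-84404992, lay close by on the same chromosome. It had 6 constituents with 38980 bp, all of which met an adult peak, and adult H3K27ac covered 90.4% of their length.

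The second in length, chr14:26276025-26380082, had 14 constituents with 43446 bp and an adult share of 85.5%, and only 1 of them overlapped H3K4me3. Fetal H3K4me1 covered 89.97% of its constituent length. Others among the 10 longest were less well covered in the adult list. The adult share was 38.7% at chr13:52632663-52715928, 44.8% at chr12:86756188-86828948, 53.8% at chr1:89503723-89558066, and 54.4% at chr7:80668653-80765431. The remaining 3 had adult shares of 66.8% (chr17:35300329-35380888), 74.6% (chr16:95641901-95683458) and 74.7% (chr19:4142753-4233485). The 10 longest domains thus ranged from well to poorly covered in the adult list.

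Adult HSCs kept H3K27ac over part of most fetal domains. Adult H3K27ac peaks covered a median of 57.8% (55.2 to 60.3) of the constituent length per domain, with quartiles of 41.6% and 74.0% and a range from 0 to 99.1%. Joined stretches of 2 or more peaks below the threshold had a median of 56.0% (54.5 to 57.0), and their quartiles of 30.5% and 78.6% were wider apart. The pooled shares of length were 57.5% and 54.4%. At least 50% of the constituent length was covered in 272 domains, at least 90% in 17, and under 20% in 24.

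Complete absence from the adult list was rare, but partial absence was common. At least 1 constituent without an adult peak was found in 343 domains, or 78.7% (74.5 to 82.4), against 41.8% of all joined stretches, most of which are a peak standing alone. No constituent was unmatched in 93 domains, 1 in 109, 2 in 100, 3 in 70, and 4 or more in 64. All constituents were unmatched in 3 domains, or 0.688% (0.142 to 1.998), against 26.4% of all joined stretches. Among the 4229 shorter stretches of 2 or more peaks this was 15.6% (14.5 to 16.7). A stretch with more peaks has more chances of having an unmatched one and fewer of having none matched, so counts at equal peak number are more comparable. They are given here for at least 1 unmatched peak only, so complete absence was not compared at equal peak number. Among stretches of 5 peaks, 84.1% (74.8 to 91.02) of 88 domains and 82.9% (75.6 to 88.7) of 140 shorter stretches had at least 1 unmatched peak. Among those of 3 peaks, the shares were 50% (33.4 to 66.6) of 38 domains and 67.4% (64.3 to 70.4) of 924 shorter stretches. With 2 peaks they were 27.8% (9.69 to 53.5) of 18 and 55.7% (53.8 to 57.6) of 2753. With 4 peaks they were 73.3% (60.3 to 83.9) and 78.0% (73.5 to 82.2), and with 6 peaks 81.7% (72.9 to 88.6) and 94.1% (80.3 to 99.3). At equal peak number the threshold leaves domains with wider peaks on average, and width was not held here.

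The same rule applied to the adult list gave 174 domains out of 12170 joined stretches. Of these, 137 overlapped a fetal domain, and 138 of the 436 fetal domains overlapped an adult one, or 31.7% (27.3 to 36.2), against 1.38% of all joined fetal stretches. All joined stretches include the domains and are mostly single peaks, and span was not held equal between these shares. In these 138 the median adult share was 77.3% (73.9 to 81.3), and in the other 298 it was 48.4% (46.4 to 51.5). The split itself uses adult H3K27ac length, so these values describe it and are no independent difference. In the other direction, fetal H3K27ac covered a median of 86.3% (83.9 to 88.1) of the constituent length of the adult domains, and 149 of their 1182 constituents, or 12.6% (10.8 to 14.6), had no fetal peak, against 11.4% of all adult H3K27ac peaks. Each set was chosen for a long acetylated length at its own stage, so the list used for the choice is favoured in both directions. The fetal list is also larger, with 23368 peaks over 49.6 Mb against 17834 peaks over 32.8 Mb, and coverage in the other direction was not computed at equal list size. For all 37 adult domains that overlapped no fetal domain, fetal stretches of up to 11905 bp were present at the place, below the threshold. Inside the fetal spans, 84 of 2060 adult peaks overlapped no fetal peak, and they lay in 64 domains.

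Single constituents without an adult peak numbered 832 of 2529, or 32.9% (31.1 to 34.8). Over all fetal H3K27ac peaks this was 34.9%, so the constituents as a whole were near the background. The share rests on where both peak calls end. It was 11.98% when domains were built only from fetal peaks at or above the median score, and 62.6% when only adult peaks at or above the median score were used. With equal numbers of top-scoring peaks from both stages it was 22.9%. Unmatched constituents lay at a median of 4094 bp (3729 to 4614) from the nearest adult peak. The rule sets constituents next to each other and most of them were matched, so short distances are built into the choice of domains.

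The unmatched constituents tended to be narrower and lower in score than the matched ones. Their median width was 1513 bp (1440 to 1584), against 2968 bp (2854 to 3063) for constituents with an adult peak. Their median score was 122.3 against 791.2, which correspond to the median percentiles 26.7 and 73.5 among fetal peaks. The score is the authors' own value from the peak caller. Within 340 domains that held both kinds, the median width of the unmatched constituents was below that of the matched ones in 326, and the widest constituent was matched in 331. With constituents without H3K4me3 alone, the order was the same in 234 of 258 domains. Unmatched constituents still reached a width of 5925 bp and a score of 1806. An overlap of 1 bp counted as a match, so a wide constituent has more room for one. This limit also holds for the width ranks and bands below, and its part in them was not tested.

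In the 376 domains with 4 or more constituents, the widest constituent was unmatched in 12, or 3.19% (1.66 to 5.51). For the second widest this was 13.6% (10.3 to 17.4), for the third 28.5% (23.9 to 33.3), and for the fourth 42.0% (37.0 to 47.2). Median widths at these ranks were 5609, 3450, 2627 and 2032 bp. None of the 250 constituents of at least 6000 bp was unmatched, which allows a share of up to 1.20% when 3 counts are taken as the limit of a count of 0, and up to 1.46% by the exact interval. Among other fetal peaks of at least 6000 bp, 7 of 171 were unmatched, or 4.09% (1.66 to 8.25). Of the 250 constituents, 56.4% (50.01 to 62.6) were met by 2 or more separate adult peaks. The median share of their width that adult peaks covered was 73.9% (68.5 to 77.7). These 2 values were not set against other peaks of that width. Broad constituents were thus met in the adult list, but in part and often by several peaks.

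**Figure D2:**
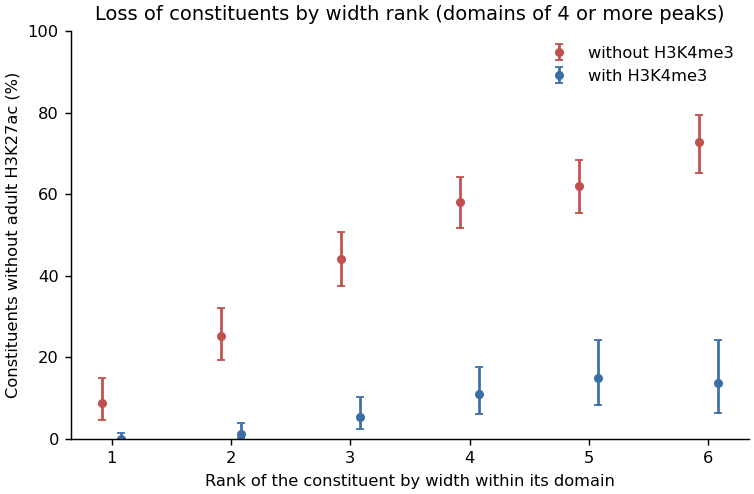
Percent of constituents without adult H3K27ac (y axis) by rank of width within the domain (x axis) in the 376 domains of 4 or more constituents, with 95% exact intervals, for constituents without (red) and with (blue) H3K4me3 of either stage. Shares without H3K4me3 run from 8.82% at the widest to 72.8% at the sixth, and those with H3K4me3 stay at or below 14.9%.

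Constituents with and without H3K4me3 differed widely in adult H3K27ac. H3K4me3 of either stage was at 1021 constituents, or 40.4% (38.5 to 42.3), against 54.4% of all fetal H3K27ac peaks. Of these, 68 had no adult H3K27ac peak, or 6.66% (5.21 to 8.37). Of the 1508 without H3K4me3, 764 had none, or 50.7% (48.1 to 53.2). For other fetal peaks these shares were 8.63% (8.13 to 9.15) and 69.0% (68.1 to 70.0). Constituents without H3K4me3 were narrower, with a median of 2052 bp against 2988 bp, and the difference between both kinds was also present within bands of width. Constituents without H3K4me3 also had a lower median score, with 216.6 against 1059.4. Score was not held equal, in the bands of width either, and its part was not tested.

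At widths from 1000 to 2000 bp, 71.9% (68.1 to 75.6) of constituents without H3K4me3 and 14.6% (10.1 to 20.02) of those with it were unmatched. From 2000 to 3000 bp the shares were 42.1% (37.03 to 47.2) and 5.43% (2.998 to 8.94), and from 4000 to 6000 bp they were 13.4% (8.40 to 19.97) and 0.588% (0.0149 to 3.23). For other fetal peaks without H3K4me3 the shares were 76.8% (75.6 to 78.0) from 1000 to 2000 bp and 50.6% (48.4 to 52.9) from 2000 to 3000 bp, and these intervals lie just above those of the constituents in both bands. From 3000 to 4000 bp, the intervals of constituents (21.1 to 35.2) and of other peaks (26.1 to 34.1) overlapped. With H3K4me3 the order was the opposite, and the shares of other peaks were 11.6% (10.7 to 12.5) from 1000 to 2000 bp and 2.89% (2.40 to 3.46) from 2000 to 3000 bp, with intervals that overlap those of the constituents. With both kinds of peak counted together, constituents had the higher shares, with 56.5% (52.9 to 59.9) against 42.9% (41.9 to 43.9) from 1000 to 2000 bp and 27.2% (23.8 to 30.8) against 18.4% (17.5 to 19.4) from 2000 to 3000 bp. H3K4me3 was at a smaller share of constituents than of other peaks, so the comparison with other peaks depends on whether it is held.

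**Figure D3:**
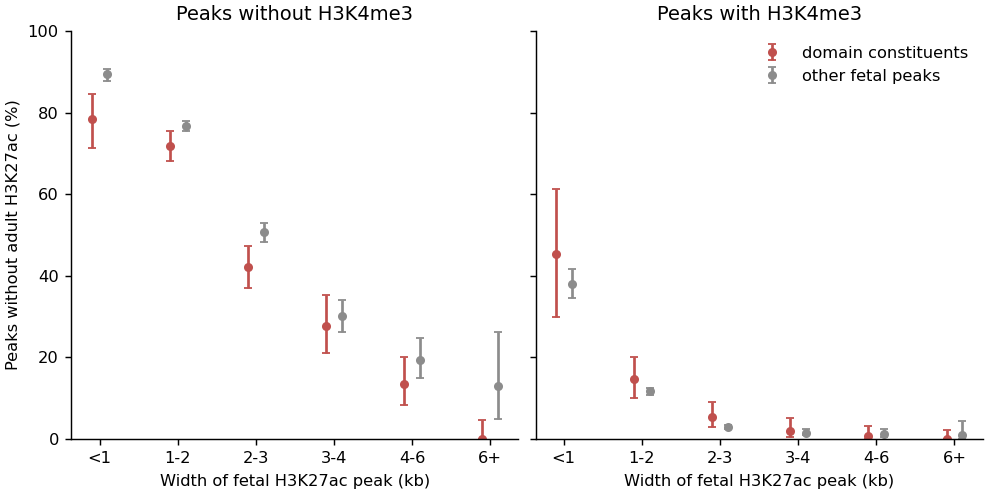
Percent of fetal H3K27ac peaks without adult H3K27ac (y axis) by peak width in kb (x axis), without H3K4me3 (left) and with H3K4me3 of either stage (right), for domain constituents (red) and other fetal peaks (grey), with 95% exact intervals. Both groups run from high shares at narrow widths to low shares at broad ones, and shares with H3K4me3 lie lower in every band under 6000 bp, while at 6000 bp and more the constituents are at 0 in both panels.

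First and last constituents were compared with inner ones, with and without width and H3K4me3 held. In domains of 3 or more constituents, 29.0% (25.9 to 32.2) of the first and last ones and 35.3% (33.04 to 37.7) of the inner ones were unmatched. The first and last ones were wider, with medians of 2516 and 2264 bp. Without H3K4me3 and at 1000 to 2000 bp, the shares were 72.1% (64.1 to 79.2) and 71.7% (67.2 to 75.9), and these intervals overlap.

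Promoter-type H3K4me3 was present in most domains but at a minority of constituents. Of the constituents, 38.6% (36.7 to 40.6) overlapped fetal H3K4me3, against 52.7% of all fetal H3K27ac peaks, and 36.7% (34.9 to 38.6) overlapped adult H3K4me3, against 52.3%. Per domain a median of 2 constituents had fetal H3K4me3, which covered 24.7% (22.2 to 27.9) of the constituent length. At least 1 constituent had it in 372 domains, or 85.3% (81.6 to 88.5), and exactly 1 in 130. Over all joined stretches, which mostly hold fewer peaks, the share with at least 1 was 66.3%. At equal peak number the intervals overlapped, with 81.8% (72.2 to 89.2) of domains and 87.9% (81.3 to 92.8) of shorter stretches of 5 peaks, and 85.6% (77.3 to 91.7) and 82.4% (65.5 to 93.2) of those of 6 peaks. Fetal H3K4me3 peaks in the spans had a median width of 1956 bp (1865 to 2040) against 1732 bp (1713 to 1750) elsewhere. The domains were chosen for long H3K27ac, and H3K27ac width was not held equal in these 2 medians. An adult H3K4me3 peak was present at 885 of the 977 constituents with a fetal one, or 90.6% (88.6 to 92.3), against 96.7% (96.3 to 97.0) for other fetal H3K27ac peaks.

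By these contents the set was mixed, so the name super-enhancer is not used for it. H3K4me3 of either stage was absent from 60 domains and present at under 50% of the constituents of 201. It was present at 50% or more, but not at all constituents, in 138, and at every constituent in 37. The last group holds only peaks that meet this promoter mark, for which an overlap of 1 bp was enough. Fetal H3K4me1 covered a median of 56.1% of the constituent length per domain in that group. The set is therefore called clustered H3K27ac domains here.

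The adult share followed that order. Its median was 42.0% (28.1 to 48.2) in domains without H3K4me3, 51.4% (46.7 to 54.8) and 68.6% (65.03 to 73.3) in the middle groups, and 84.8% (80.8 to 88.3) where every constituent had H3K4me3. The share of unmatched constituents was 48.4% (42.7 to 54.1), 39.0% (36.3 to 41.8), 22.0% (19.1 to 25.04) and 9.88% (5.86 to 15.4). Of the 24 domains with an adult share under 20%, 16 had no H3K4me3, 7 had it at under 50% of their constituents, and 1 had it at every constituent. Median span lay between 31767 and 35797 bp in the 4 groups. Width and score of the constituents were not held equal between the groups.

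**Figure D4:**
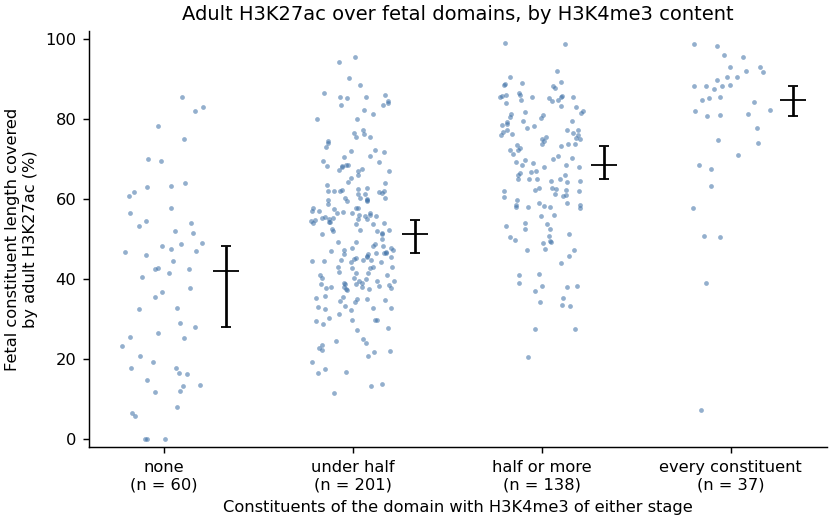
Percent of fetal constituent length covered by adult H3K27ac (y axis) in each of the 436 domains (points), grouped by how many constituents overlap H3K4me3 of either stage, with the group median and its 95% exact interval in black. Medians run from 42.0% to 84.8%, and the groups overlap widely, with 1 point at 7.41% in the group with H3K4me3 at every constituent.

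The 5 domains with the lowest adult shares had no H3K4me3. The 3 without any adult H3K27ac were chr5:77551346-77587886, chr12:12551233-12601052 and chr17:88510481-88533349, each with 5 constituents, of 13291, 14188 and 16829 bp in sum. The nearest adult peak was between 27054 and 94757 bp from their constituents, so whole stretches and not edges were missing. In chr17:88510481-88533349 the constituents were 4071, 2867, 4068, 3950 and 1873 bp wide, with scores of 1332.1, 569.5, 539.4, 524.2 and 110.9, so most of them were neither narrow nor low in score. Fetal H3K4me1 covered only 28.8% of their length, against 46.7% and 57.3% in the other two. Adult H3K4me1 was listed in chr12:12551233-12601052 alone, over 639 bp. Next came chr2:148386823-148427696, with an adult share of 5.94%, and chr4:59251359-59289452, with 6.47%, each with 5 of 6 constituents unmatched and no H3K4me3 at either stage.

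The widest unmatched constituent of all was chr16:58478213-58484137, 5925 bp wide with a score of 1096.2, in the domain chr16:58473673-58524385. It had fetal H3K4me1 over 4205 bp, no H3K4me3 and no adult H3K4me1. The nearest adult H3K27ac peak was 14566 bp away.

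In the 60 domains without H3K4me3 the adult share ranged from 0 to 85.6%. The 3 longest of them were chr8:129325780-129377448 with 30067 bp, chr4:134608864-134659216 with 29554 bp and chr14:66815984-66863506 with 28588 bp, and their adult shares were 47.0%, 42.5% and 37.9%. In chr8:129325780-129377448, 5 of 9 constituents met an adult peak. Those of 6239, 4586, 4682 and 5187 bp were each covered in part, over 3231, 2272, 2751 and 4423 bp. Those of 2290, 1616, 2238 and 1616 bp were unmatched, so the unmatched constituents lay between broad matched ones. The fifth matched constituent was as narrow, with 1613 bp, and was covered over 1464 bp. In chr14:66815984-66863506, by contrast, the widest constituent, of 5637 bp, was unmatched, with the nearest adult peak 3004 bp away. Another domain without H3K4me3, chr2:18811402-18881643, had 13 constituents of which 6 were unmatched, with an adult share of 40.7%.

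At the high end most domains were rich in H3K4me3. The 5 highest adult shares were 99.1% at chr5:115221267-115236658, 98.9% at chr11:18907107-18927910, 98.7% at chr17:34044945-34094061, 98.4% at chr19:4292582-4306442 and 96.2% at chr19:6044942-6086455. In these, 3 of 4, 4 of 4, 7 of 9, 1 of 1 and 6 of 6 constituents had H3K4me3 at either stage. The domain with the second most constituents, chr2:25017273-25128988, had fetal H3K4me3 at all 15 of them, none was unmatched, and its adult share was 85.7%. The domain with the most, chr7:134338071-134441298, had H3K4me3 at 9 of 16, with 6 unmatched and an adult share of 62.1%.

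Domains rich in H3K4me3 could also hold unmatched constituents. The largest fetal H3K4me3 share of constituent length was 99.6%, at chr13:23514589-23546023, where all 7 constituents had H3K4me3 at both stages. Its 3 unmatched constituents were narrow, with 827, 948 and 831 bp, and kept adult H3K4me3 over their whole width. A second domain lay close by at chr13:23608270-23685813, with H3K4me3 at 11 of 13 constituents, 3 unmatched and an adult share of 60.9%. The next in H3K4me3 share were chr6:52140767-52184981 with 97.5% and chr11:18907107-18927910 with 97.3%, and their adult H3K27ac shares were 88.3% and 98.9%.

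H3K4me1 was more extensive at the constituents than at other fetal H3K27ac peaks. A fetal H3K4me1 peak was found at 95.5% (94.7 to 96.3) of constituents, against 89.3% of all fetal H3K27ac peaks. It covered 66.9% of the constituent length against 47.4% of the length of other fetal peaks. With the fetal H3K4me1 list reduced to the number of peaks in the adult one, the share of constituents was 63.3%. Per domain the fetal H3K4me1 share of constituent length had a median of 66.9% (65.3 to 69.5) and ranged from 7.77% to 95.6%. The gaps between constituents were covered by fetal H3K4me1 over a median of 16.0% (14.2 to 18.1), against 8.45% (7.95 to 9.03) in shorter stretches of 2 or more peaks. Gap length was not held equal in these 2 values.

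The difference between constituents and other fetal peaks was also present at equal width and H3K4me3 state. At widths from 2000 to 3000 bp and without H3K4me3, fetal H3K4me1 covered a median of 80.7% (77.2 to 83.1) of a constituent and 71.4% (69.7 to 72.6) of another fetal peak. With H3K4me3 at the same widths the medians were 49.7% (44.4 to 57.2) and 30.3% (29.3 to 31.1). These pairs of intervals did not overlap.

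The adult H3K4me1 list is short and its peaks are narrow, with 12502 peaks of 193 bp in the median on these chromosomes against 92339 of 430 bp in the fetal list. Even so, it met 39.5% (37.6 to 41.4) of the constituents, against 20.2% of all fetal H3K27ac peaks, and at least 1 constituent in 404 of 436 domains, against 23.9% of all joined stretches. The domains have more and wider constituents than other stretches, and these were not held equal in both shares. At 2000 to 3000 bp without H3K4me3, adult H3K4me1 was at 48.4% (43.3 to 53.6) of constituents and 36.2% (34.1 to 38.4) of other peaks. The length it covered was small, with a median of 5.21% (4.79 to 5.71) per domain.

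Adult H3K4me1 differed between unmatched and matched constituents. Among constituents without H3K4me3, adult H3K4me1 was at 19.1% (16.4 to 22.1) of the unmatched and 63.8% (60.3 to 67.3) of the matched ones. At 2000 to 3000 bp the shares were 29.6% (22.6 to 37.3) and 62.1% (55.3 to 68.6), and at 3000 to 4000 bp they were 23.9% (12.6 to 38.8) and 68.3% (59.2 to 76.5). In the fetal list both shares were high, with H3K4me1 at 90.2% (87.9 to 92.2) and 99.2% (98.3 to 99.7). Where a constituent carried fetal H3K4me3 and had no adult H3K27ac, adult H3K4me3 was present at 32 of 58, or 55.2% (41.5 to 68.3), against 853 of 919, or 92.8% (91.0 to 94.4), of the matched ones. Constituents absent from one adult list were thus more often absent from the others by these intervals, and the part of width and depth in the H3K4me3 counts was not tested.

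Polycomb H3K27me3 was found in a minority of the domains. The 2 lists of this mark are unlike, with 37.8 Mb and a median width of 1408 bp in the fetal list. The adult list covers 9.31 Mb with a median width of 280 bp, and stages were not compared at equal list size for this mark. A fetal H3K27me3 peak lay in the span of 52 domains, or 11.9% (9.04 to 15.3), against 7.74% of all joined stretches, and an adult one in 31, or 7.11% (4.88 to 9.94), against 3.48%. Spans of domains are longer, and shorter stretches of 2 or more peaks gave 9.77% (8.89 to 10.7) and 4.63% (4.02 to 5.31). Per constituent the fetal share was 2.45% (1.88 to 3.13), against 5.09% of all fetal H3K27ac peaks. Where fetal H3K27me3 was present it covered a median of 4.80% of the span.

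The domains with the most fetal H3K27me3 were chr7:19885954-19931100 with 10360 bp, chr11:120478212-120535654 with 8570 bp and chr1:193006082-193026269 with 6932 bp. In the adult list, which covers less of the genome, H3K27me3 covered 2007, 3561 and 2709 bp of them. Their adult H3K27ac shares were 86.6%, 90.6% and 29.8%. In the same order, 6 of 8, 7 of 7 and 1 of 3 constituents had H3K4me3 of either stage. The adult H3K27ac share had a median of 69.2% (61.5 to 76.4) in the 52 domains with fetal H3K27me3 and 56.1% (53.7 to 58.7) in the other 384. H3K4me3 content was not held equal between these groups, and its part was not tested.

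Adult H3K27me3 overlapped 2 of the 832 unmatched constituents, or 0.240% (0.0291 to 0.866), and 27 of the 1697 matched ones, or 1.59% (1.05 to 2.31), against 2.14% of all fetal H3K27ac peaks. It lay in 2 of the 76 domains with over 50% of constituents unmatched, or 2.63% (0.320 to 9.18), and in 29 of the other 360, or 8.06% (5.46 to 11.4), and these intervals overlap. Unmatched constituents were narrower and fewer of them had H3K4me3. Neither was held equal in the shares of constituents, and their part was not tested. In 28 of the 31 domains with adult H3K27me3 the fetal list had it too. The 3 others were chr5:135725571-135760303 with 501 bp, chr9:72915948-72976527 with 451 bp and chr6:49157272-49170589 with 6143 bp.

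The domain chr6:49157272-49170589 had the lowest adult H3K27ac share of the 37 domains with H3K4me3 at every constituent. It had 2 constituents with 12033 bp in a span of 13318 bp. Its best score was 3100, where scores pile up, and 160 of the 436 domains (36.7%) had a best score of at least 3100. Fetal H3K4me3 covered 78.9% of the constituent length and fetal H3K27me3 none of the span. In the adult lists H3K27ac covered 7.41% and H3K4me3 13.5% of the constituent length, and H3K27me3 covered 6143 bp of the span. The place was chosen after its values were seen, and with 1 pooled list per stage it has no replicate check.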

How the data were processed

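The deposited files were 8 peak lists of ChIP-seq, 1 per mark and stage, giving position, name and score for each peak. Per the file titles the lists are combined, and they were taken as calls on 2 pooled replicates. The deposited peaks have names that begin with MACS. The submitters' processing notes name Bowtie2 2.2.2 and mm9. Caller settings and control are not given in the sources used here. The deposited score has no stated unit, starts at 50, and served to describe and filter peaks inside 1 list at a time.

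Peaks on chromosomes 1 to 19 were joined and filtered as described above, and overlap meant at least 1 bp. Constituents without an overlapping adult H3K27ac peak are called unmatched. Shares have 95% Clopper-Pearson intervals and medians have exact order-statistic intervals. No p-value was computed, because each list pools its replicates. Named domains were the 10 longest, the 5 with most constituents, the 5 lowest and 5 highest adult shares, the 3 with most H3K27me3, the 3 largest H3K4me3 shares, the 3 longest without H3K4me3, those at the threshold and the widest unmatched constituent. Members and lists were chosen with earlier results of these data known. Stitching distance, length threshold, score filters, overlap, merging, equal list sizes and the chromosomes used were varied. Gene names and sequences need an mm9 annotation and genome, which were not used here. The 4 input samples were not analysed here.

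On simulated peaks, 200 of 200 planted domains and their unmatched constituents were recovered. Python 3.11.15, numpy 2.4.6, pandas 2.3.3, scipy 1.17.1 and matplotlib 3.10.9 were used.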

Additional observations from a re-analysis of the deposited data

Results flagged for a closer look

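Fetal H3K27ac peaks outside chromosomes 1 to 19 entered no comparison. They are counted here because the rule left them out, and their number was not tested. There were 23 fetal H3K27ac peaks on unplaced contigs. On chromosomes X and Y there were 429 fetal H3K27ac peaks, from which the same rule gave 2 domains, both on X. The domain chrX:11699869-11738251 had 8 constituents with 16177 bp, 4 of them unmatched, and an adult share of 59.8%. The domain chrX:166420692-166446860 had 3 constituents with 19205 bp, 2 of them unmatched, and an adult share of 60.2%.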

How the results depend on the processing

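No paired analysis was possible because replicates are pooled in the lists and nothing was tested, so leaving out a replicate was not possible either. Shares and medians counted as moved outside the 95% interval of the value reported, and counts beyond 1.5 times. Of 61 values under 11 settings, 37 moved, and the cause was not tested.

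The number of domains was 200 and 790 with joining distances of 5000 and 25000 bp, 658 and 253 with thresholds of 10000 and 15000 bp, and 207 with fetal H3K27ac peaks at or above the median score. The median adult share was 60.3% with 25000 bp, 66.0% with fetal peaks at or above the median score, 37.1% with adult peaks at or above it, 51.5% when 50% of a constituent had to be covered, and 61.4% with equal numbers of peaks. In the last 4 of these settings the share of unmatched constituents was 11.98%, 62.6%, 44.8% and 22.9%. The share of domains with at least 1 unmatched constituent was 70.5% and 83.8% with 5000 and 25000 bp, 73.3% and 82.6% with thresholds of 10000 and 15000 bp, and then 32.9%, 96.6%, 86.9% and 62.7% in the same 4 settings.

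Fetal H3K4me3 was at 34.9% and 44.5% of constituents with 5000 and 25000 bp, 53.6% with fetal H3K27ac peaks at or above the median score, 21.9% with H3K4me3 peaks at or above theirs, and 28.1% with 50% covered. Fetal H3K4me1 was at 96.4% with 5000 bp and, under the same 3 filters, at 98.4%, 88.7% and 70.3%, and at 63.3% with equal numbers of H3K4me1 peaks. Fetal H3K27me3 was in the span of 5.50% and 21.4% of domains with 5000 and 25000 bp, and under these filters in 6.76%, 8.94% and 0% with 50% of the span covered. Including X and Y moved none of the 7 results, and merging adult peaks within 1000 bp moved none of the 3 that it was run on, which were the adult share and both measures of unmatched constituents.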
